A study of Mus musculus with 10 samples.

Results

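The 6 genes described here encode complement components and one regulator outside the C1q chains: C1ra, C3, C4b, Cfb, Serping1 and Cfd. They were taken as every probe set, that is, every group of short probes that together measure one transcript, whose gene symbol in the platform annotation is one of these names. Of the 12488 probe sets of the deposited table, which together name 8949 genes, 8 carry such a name. Of the 6 genes, 3 (C1ra, Cfb and Serping1) have a probe set of their own. C4b is named only together with its near-identical copy C4a, and 1 further probe set names C1ra together with C1rb. C3 and Cfd are named by no probe set of the annotation used and were not analysed here. Of the 8 probe sets, 4 were bright enough to be tested, their mean level lying above a signal of 42.9, and the other 4 lay below it.

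Cochlear RNA of female mice aged 10 weeks was measured on 10 one-colour Affymetrix arrays, each with labelled RNA pooled from 8 mice. The strains compared, which are damaged by noise to unlike degrees, were the inbred 129X1/SvJ and B6.CAST, which carries a chromosome segment from CAST mice on a C57BL/6 background. Exposure lasted 1 h, to an octave band of 10 kHz at 105 dB SPL, and tissue was taken 6 h afterwards, whereas control mice received a sham exposure in the same chamber. Each 129X1/SvJ group had 3 arrays and each B6.CAST group had 2. The labels name no transgene and no drug in any of the 4 groups.

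Complement is a cascade of plasma and tissue proteins that tags particles and cells for uptake and can form pores in membranes. In the classical pathway, C1q holds the proteases C1r and C1s. C1r activates C1s, and C1s cleaves C4 and C2, which form the enzyme that cleaves C3. In the alternative pathway, factor D cleaves factor B, which then forms a C3-cleaving enzyme of its own. C1 inhibitor, encoded by Serping1, blocks C1r and C1s in the fluid phase, and CD59 on cell surfaces blocks the pore.

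No member probe set passed the adjusted p threshold of 0.05 in any of the 6 comparisons between groups. One of the 2 probe sets of C1ra separated all 4 groups, lower after noise in 129X1/SvJ and higher after noise in B6.CAST, but the other probe set of the gene did not follow it in B6.CAST. The share of all tested probe sets that separate all 4 groups was not counted, so this does not single out C1ra. In single comparisons, groups did not overlap for 16% to 29.9% of all tested probe sets. Serping1, the C4a/C4b probe set and Cfb showed no change that passed the test. Among the other complement genes the only calls were of Cd59a, which was higher in B6.CAST than in 129X1/SvJ with and without noise. The plot of member signals by group shows every array.

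**Figure D1:**
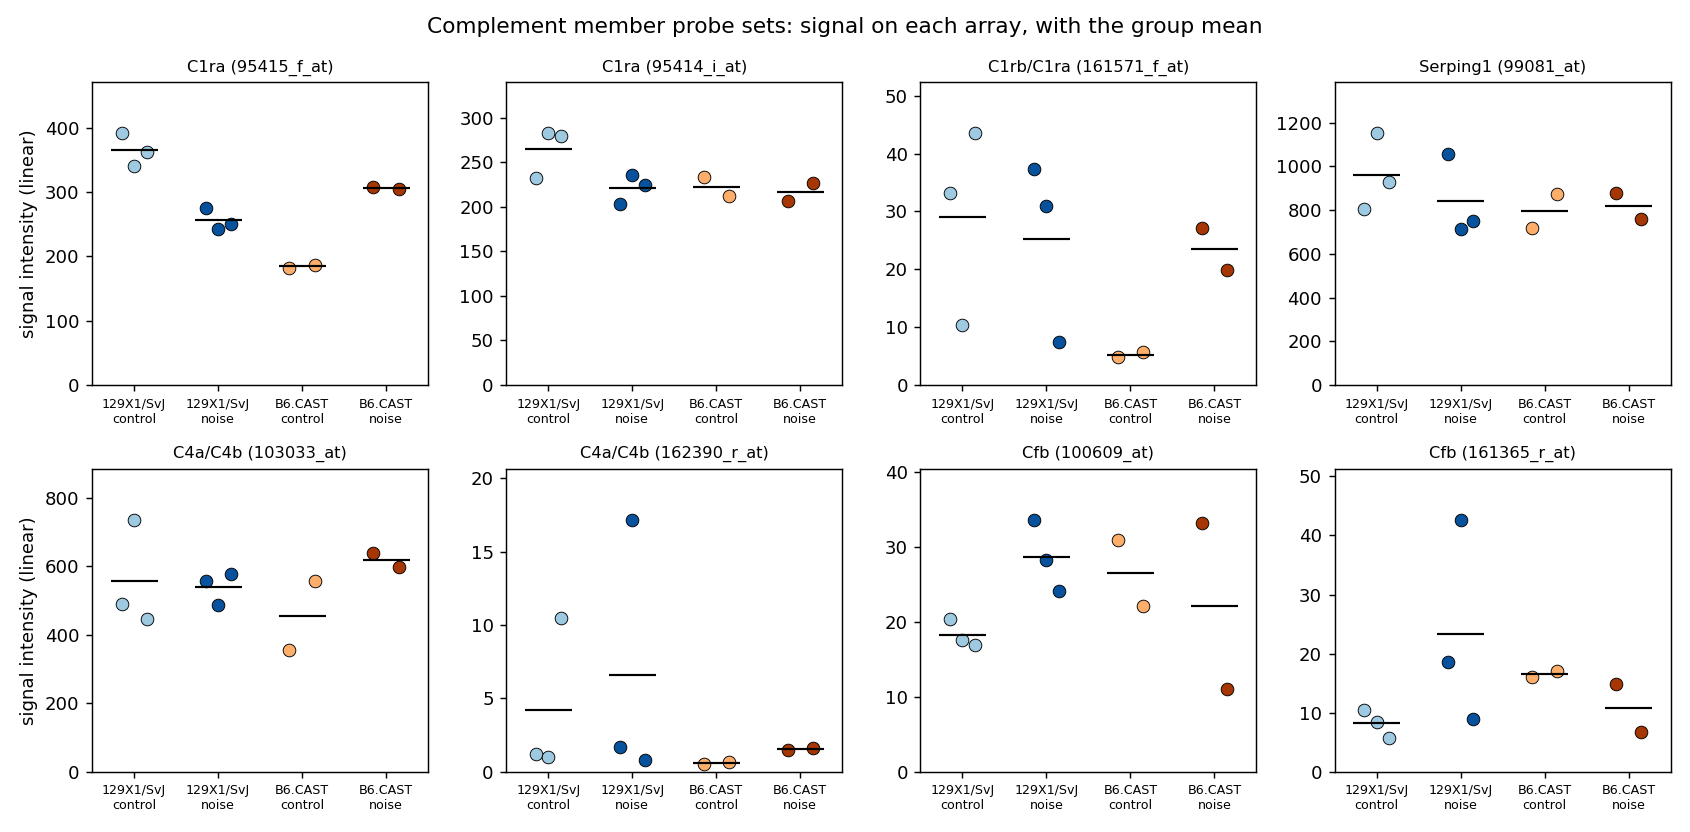
Signal intensity (linear scale) of the 8 member probe sets on each of the 10 arrays, with 1 panel per probe set; points are arrays and bars are group means. In the panel of C1ra 95415_f_at no group overlaps another, from 181.4 in a B6.CAST control to 391.8 in a 129X1/SvJ control, whereas the panel of Serping1 shows 4 overlapping groups.

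The promoter of C1ra is shown because C1ra is the member with a probe set that separated the groups, and that of Cd59a because it was the only complement gene called. Both are windows of 300 bases around the start site, from RefSeq on GRCm38.p6, at chr6:124512371-124512670 on the plus strand for C1ra and at chr2:104095551-104095850 on the plus strand for Cd59a. Capitals mark the matches to the motifs searched on both strands: the STAT site GAS (TTCNNNGAA), the interferon response core (GAAA, any 2 bases, GAAA), the C/EBP core (TTGCNNAA) and the kappaB consensus.
C1ra: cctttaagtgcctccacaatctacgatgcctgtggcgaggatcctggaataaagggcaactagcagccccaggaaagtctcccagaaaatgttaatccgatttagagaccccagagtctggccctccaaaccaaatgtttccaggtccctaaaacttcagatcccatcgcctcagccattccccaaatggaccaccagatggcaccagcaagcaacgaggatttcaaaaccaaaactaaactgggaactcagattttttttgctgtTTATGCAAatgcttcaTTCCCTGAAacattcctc
Cd59a: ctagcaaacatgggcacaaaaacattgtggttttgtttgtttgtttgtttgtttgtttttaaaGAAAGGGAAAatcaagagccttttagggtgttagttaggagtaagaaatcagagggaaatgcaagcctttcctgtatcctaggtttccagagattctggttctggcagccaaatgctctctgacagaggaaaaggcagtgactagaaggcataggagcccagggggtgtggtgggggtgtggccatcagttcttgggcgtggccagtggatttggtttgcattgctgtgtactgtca
The C1ra window holds a GAS match beginning 33 bases and a C/EBP core beginning 17 bases into the transcript, without overlap. The Cd59a window holds 1 match to the interferon response core, 187 bases before the start site. Of 32851 mouse promoter windows of the same length, 8.3% hold a GAS match, 10.8% a C/EBP core, 3.44% an interferon response core and 4.51% a kappaB consensus. A match is only a match of letters, and binding was not measured. Cfb, C4b and Serping1 have no entry in the promoter table.

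C1ra encodes the mouse form of C1r, the protease that activates C1s. On probe set 95415_f_at its signals were 391.8, 340.3 and 362.0 in 129X1/SvJ controls and 274.2, 242.7 and 250.5 after noise. In B6.CAST they were 181.4 and 187.2 in controls and 307.3 and 304.8 after noise. The 4 groups did not overlap: 129X1/SvJ controls were highest, then B6.CAST after noise, then 129X1/SvJ after noise, and B6.CAST controls were lowest. The group means were 365 ± 25.9 (SD, n = 3), 306 ± 1.77 (SD, n = 2), 256 ± 16.4 (SD, n = 3) and 184 ± 4.1 (SD, n = 2) in that order.

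In 129X1/SvJ the level on this probe set was 1.46-fold lower after noise, a log2 change of -0.55 ± 0.17 (standard error), with a 95% confidence interval from -0.92 to -0.17. The limma p was 0.00836 before and 0.29 after adjustment over all 8695 tested probe sets. In B6.CAST it was 1.62-fold higher after noise, a log2 change of 0.69 ± 0.21 with an interval from 0.23 to 1.15, and the limma p was 0.00696 before and 1 after adjustment. The mean of both noise effects was 0.07 ± 0.14 on the log2 scale. The noise effects differed by 1.24 ± 0.27 on the log2 scale (B6.CAST minus 129X1/SvJ, interval 0.64 to 1.83). The limma p of this difference was 7.6e-04 before adjustment and 0.997 after it, so it did not pass. Its size ranged from 1.06 to 1.35 and its adjusted p from 0.2970 to 0.9998 over 18 alternative settings.

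Between the strains, the same probe set was 1.9-fold lower in B6.CAST than in 129X1/SvJ controls, a log2 difference of -0.93 ± 0.19 with an interval from -1.35 to -0.51. The limma adjusted p of 0.0505 lay just outside the threshold of 0.05. It passed in 5 of 19 alternative settings, with a lowest adjusted p of 0.0245 under array weights, and its highest adjusted p was 0.3937. A difference in signal between strains was not separated from sequence differences under the probes, here or for Cd59a, and their part was not tested. After noise the order of the strains was turned, and the log2 difference of 0.31 ± 0.19 did not pass (limma adjusted p = 0.664).

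The other probe set named for C1ra alone, 95414_i_at, gave 232.1, 282.9 and 279.7 in 129X1/SvJ controls and 202.5, 235.0 and 224.7 after noise. Its B6.CAST signals were 233.0 and 212.1 in controls and 206.7 and 227.0 after noise. As deposited, 2 of the 3 129X1/SvJ controls stood above all other arrays and the other control lay among them. After normalization the lowest of these controls, at 7.97 on the log2 scale, lay just above the highest noise array of the strain, at 7.96, and above the higher B6.CAST control, at 7.92.

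The log2 change after noise on 95414_i_at was -0.34 ± 0.19 in 129X1/SvJ (interval -0.76 to 0.08) and -0.02 ± 0.24 in B6.CAST (interval -0.54 to 0.50). The direction in 129X1/SvJ was thus that of 95415_f_at, and the rise in B6.CAST was absent from its estimate. Its noise effects differed by 0.32 ± 0.30 on the log2 scale, an interval from -0.35 to 0.99 that overlaps the interval of 95415_f_at. The strain difference on 95414_i_at was -0.24 ± 0.22 in controls and 0.09 ± 0.22 after noise.

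A further probe set, 161571_f_at, names C1ra together with C1rb, a close copy of the gene, and was too dim to be tested with the rest. It gave 33.2, 10.4 and 43.6 in 129X1/SvJ controls, 37.3, 31.0 and 7.4 in 129X1/SvJ after noise, 4.8 and 5.7 in B6.CAST controls and 27.1 and 19.9 in B6.CAST after noise. The B6.CAST controls lay below every other array, whereas the other 3 groups overlapped. In a fit that kept dim probe sets, its log2 change in B6.CAST was 0.86 ± 0.38 and its strain difference in controls was -1.02 ± 0.34, with limma adjusted p-values of 1 and 0.342.

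Across the 10 arrays the normalized log2 values of 95415_f_at and 161571_f_at correlated with r = 0.76, those of 95414_i_at and 95415_f_at with r = 0.45 and those of 95414_i_at and 161571_f_at with r = 0.09. The arrays share group differences and scaling, so these are descriptions. In the platform's naming the letter f marks probe sets whose probes may match related sequences. Signals of C1ra and C1rb therefore cannot be told apart on 95415_f_at or 161571_f_at, and C1ra has no direction after noise in B6.CAST on which its probe sets are alike. The letter i of 95414_i_at is also a mark of that naming, and which probe set reads C1ra better was not tested.

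**Figure D2:**
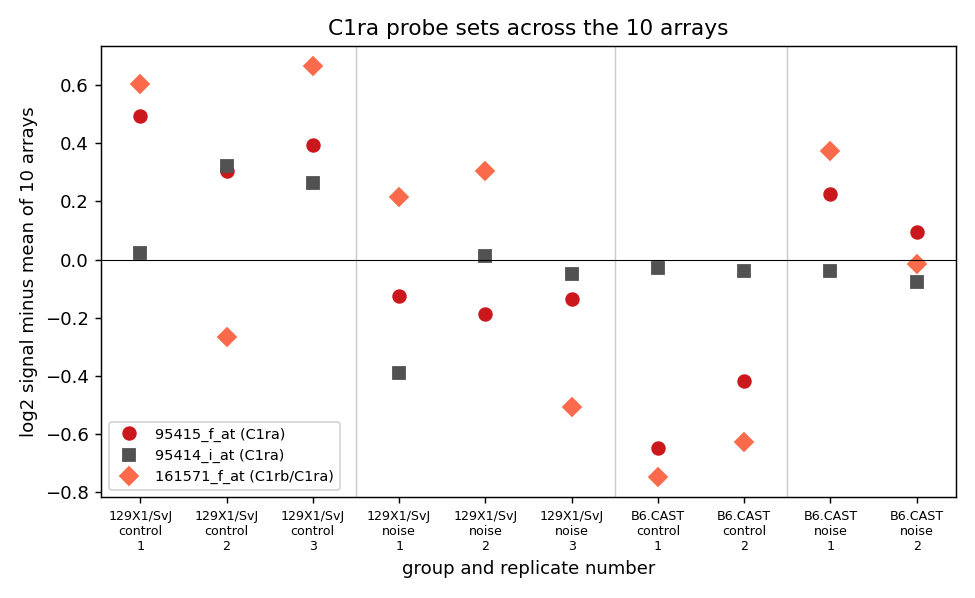
Normalized log2 signal of the 3 probe sets that name C1ra on each of the 10 arrays, given as the difference from that probe set's mean over the arrays; vertical lines part the 4 groups. The 95415_f_at and 161571_f_at points lie lowest in the B6.CAST controls and higher after noise in that strain, whereas the 95414_i_at points of all 4 B6.CAST arrays lie together.

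C4, encoded by C4b in the mouse and closely matched by C4a, is cleaved by C1s, and its larger fragment binds to surfaces. Probe set 103033_at, which names both genes, gave 490.0, 735.9 and 444.8 in 129X1/SvJ controls and 555.9, 486.8 and 575.8 after noise. It gave 353.9 and 555.2 in B6.CAST controls and 639.4 and 596.2 after noise. Both B6.CAST noise arrays lay above both controls of the strain and above every 129X1/SvJ noise array, while 1 of the 129X1/SvJ controls was the highest array of all.

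The log2 change of 103033_at after noise was -0.01 ± 0.23 in 129X1/SvJ (interval -0.50 to 0.48) and 0.47 ± 0.28 in B6.CAST (interval -0.13 to 1.08), with limma adjusted p-values of 0.987 and 1. The difference of 0.48 ± 0.36 between the strains' noise effects did not pass either (limma adjusted p = 0.997). With 1 array left out at a time the change in B6.CAST ranged from 0.13 to 0.82, so the low control and the high control of that strain decide its size. The second C4a/C4b probe set, 162390_r_at, was listed between 0.5 and 17.2 on all arrays, below the tested range, and correlated with 103033_at at r = -0.24 over the 10 arrays.

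Factor B, encoded by Cfb, supplies the protease of the alternative pathway. Both of its probe sets lay below the tested range on every array. Probe set 100609_at gave 20.4, 17.6 and 17.0 in 129X1/SvJ controls, 33.7, 28.3 and 24.1 in 129X1/SvJ after noise, 31.0 and 22.1 in B6.CAST controls and 33.3 and 11.0 in B6.CAST after noise. As deposited, the 129X1/SvJ noise arrays all lay above the controls of that strain, whereas the normalized values overlapped.

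In the fit that kept dim probe sets, the log2 change of Cfb on 100609_at was 0.21 ± 0.26 in 129X1/SvJ and -0.23 ± 0.32 in B6.CAST. Their limma adjusted p-values were 0.821 and 1. The second Cfb probe set, 161365_r_at, ranged from 5.8 to 42.7, and the pair correlated with r = 0.56 over the 10 arrays. At these levels changes on the log2(intensity + 16) scale understate the change in RNA, and no change of Cfb could be detected or bounded closely. Factor D and C3, the other components of that pathway among the members, were not analysed here.

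Serping1 encodes C1 inhibitor, the serpin that inactivates C1r and C1s. Its probe set, 99081_at, gave 803.9, 1154.0 and 930.7 in 129X1/SvJ controls and 1058.8, 715.0 and 750.7 after noise. It gave 719.9 and 872.1 in B6.CAST controls and 877.5 and 760.4 after noise. All 4 groups overlapped.

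The log2 change of Serping1 after noise was -0.17 ± 0.20 in 129X1/SvJ (interval -0.60 to 0.27) and 0.03 ± 0.24 in B6.CAST (interval -0.50 to 0.57), with limma adjusted p-values of 0.757 and 1. The strain difference was -0.23 ± 0.22 in controls and -0.03 ± 0.22 after noise. The intervals leave room for changes of up to about these bounds in either direction and do not show that the level was unchanged.

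Noise in 129X1/SvJ called 0 of the 4 tested member probe sets, against 0.506% of all tested probe sets, and in B6.CAST 0 of 4 against 0.046%. The mean noise effect called 0 of 4 against 0.46%, and the difference of noise effects 0 of 4 against 0% (258 of the 8695 probe sets had an unadjusted limma p under 0.05 there, where 434.8 would be met by chance). The strain difference called 0 of 4 in controls against 0.92%, and 0 of 4 after noise against 1.45%. At an unadjusted limma p under 0.05 there was 1 member probe set, 95415_f_at, for noise in each strain, for the difference of noise effects and for the strain difference in controls, and there were 0 for the mean noise effect and for the strain difference after noise. Over all 8695 probe sets the numbers at that level were 1003 and 183 for noise in 129X1/SvJ and B6.CAST, 663 for the mean noise effect, and 966 and 920 for the strain differences without and with noise.

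Groups that did not overlap were found for 2 of the 4 tested member probe sets in each of 4 comparisons. For noise in 129X1/SvJ these were both probe sets of C1ra, against 16% of all tested probe sets, and for noise in B6.CAST they were 103033_at and 95415_f_at, against 29.6%. Between the strains they were both probe sets of C1ra in controls, against 29.9%, and 103033_at and 95415_f_at after noise, against 25.3%. With so few members and such shares these counts single out nothing. The median log2 change of the 4 member probe sets was -0.26 after noise in 129X1/SvJ and 0.25 in B6.CAST, beside -0.04 and 0.01 over all tested probe sets. The plot of noise changes sets member and other complement probe sets side by side.

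**Figure D3:**
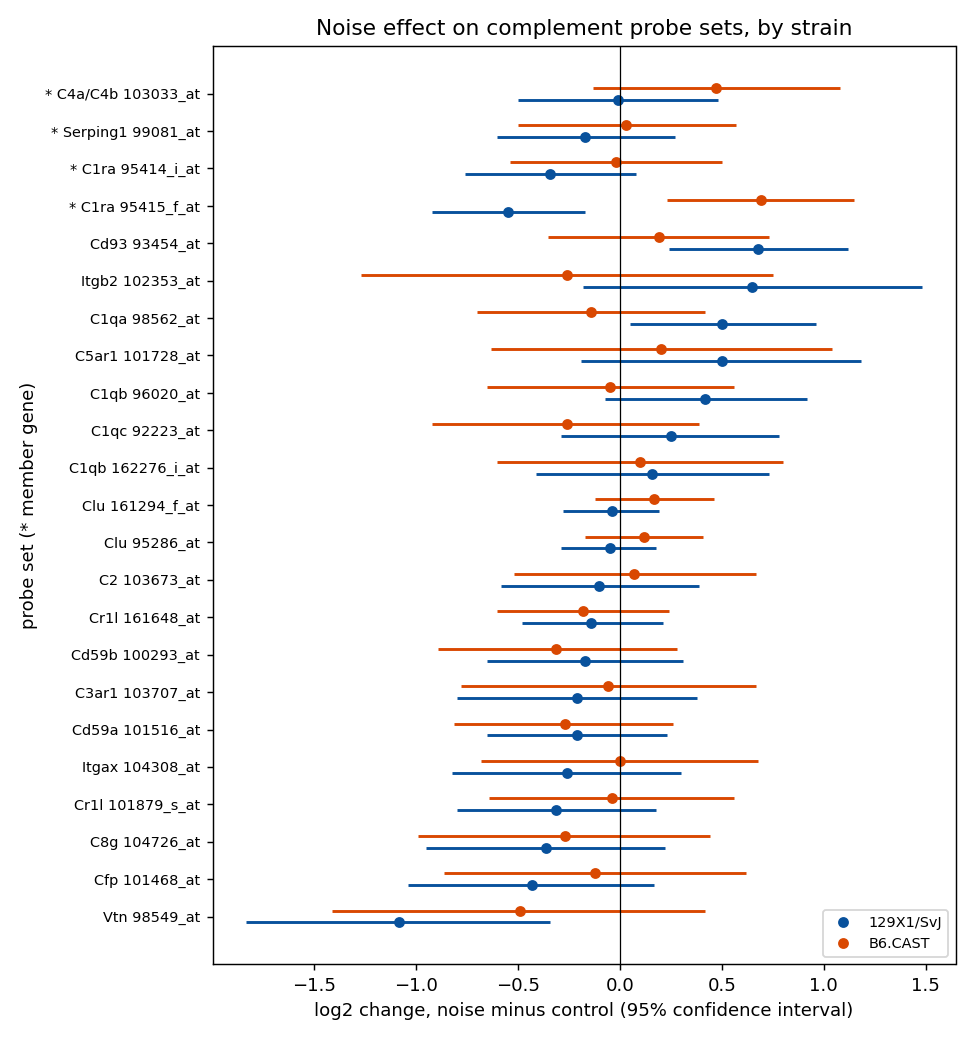
Log2 change after noise (noise minus control) of the 23 tested complement probe sets in 129X1/SvJ (blue) and B6.CAST (orange), with 95% confidence intervals; asterisks mark member genes. For C1ra 95415_f_at the interval lies below 0 in 129X1/SvJ and above 0 in B6.CAST, and no probe set passed the adjusted threshold.

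Beyond the members, a list of 49 other complement genes was described, of which 31 were on the array and 16 were tested by their brightest probe set. After noise, 0 of these 16 genes passed the test in 129X1/SvJ, in B6.CAST, in the mean of both or in the difference between them. Of all tested probe sets, 0.506%, 0.046%, 0.46% and 0% passed in these comparisons, so 0 of 16 genes is no result about complement. At an unadjusted limma p under 0.05 there were 3, 0, 2 and 0 genes in these comparisons, beside 1003, 183, 663 and 258 of all 8695 probe sets. Their median log2 change was -0.13 in 129X1/SvJ and -0.09 in B6.CAST, beside -0.04 and 0.01 over all tested probe sets. Genes below the filter lie outside these counts. Of these, Masp2 gave dim signals of 10.2 to 13.4 in B6.CAST controls and 57.9 to 64.1 after noise. In 129X1/SvJ it gave 10.2 to 46.5 in controls and 43.7 to 73.7 after noise, which overlap. Masp2 was named after its signals were seen and was not tested with the rest. In B6.CAST, noise and control arrays did not overlap for 29.6% of all tested probe sets, so this does not single out Masp2.

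The C1q chains recognise antibody and dying cells and carry C1r. In 129X1/SvJ, C1qa signals were 394.3, 594.6 and 536.9 in controls and 920.7, 639.3 and 618.6 after noise, and in B6.CAST 941.0 and 890.7 in controls and 759.5 and 899.8 after noise. The 129X1/SvJ controls were lowest, and after noise that strain did not overlap its controls. The log2 change of C1qa was 0.50 ± 0.21 in 129X1/SvJ (limma adjusted p = 0.411) and -0.14 ± 0.25 in B6.CAST, so it ran opposite to C1ra 95415_f_at in both strains by its estimates. The brighter C1qb probe set, 96020_at, changed by 0.42 ± 0.22 in 129X1/SvJ and C1qc by 0.25 ± 0.24 on the log2 scale, and neither passed.

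In controls the C1q chains lay higher in B6.CAST by estimates of 0.85 ± 0.23 for C1qa, 0.76 ± 0.25 for C1qb and 0.59 ± 0.27 for C1qc on the log2 scale, with limma adjusted p-values of 0.164, 0.283 and 0.451. The second C1qb probe set, 162276_i_at, gave a difference of -0.24 ± 0.29. C2, the partner of C4 in the C3-cleaving enzyme, changed by -0.10 ± 0.22 after noise in 129X1/SvJ and by 0.07 ± 0.27 in B6.CAST. Properdin, which steadies the enzyme of the alternative pathway and is encoded by Cfp, changed by -0.43 ± 0.27 and -0.12 ± 0.34, and C8g, a chain of the pore, by -0.36 ± 0.27 and -0.27 ± 0.33. None of these passed.

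The membrane regulators held the only calls. CD59 stops the last step of pore formation, and the mouse has the copies Cd59a and Cd59b. On 101516_at, Cd59a signals were 1676.8, 1586.5 and 1411.6 in 129X1/SvJ controls and 946.0, 1535.4 and 1555.8 after noise, and 4483.7 and 3533.4 in B6.CAST controls and 2871.5 and 3674.1 after noise. Every B6.CAST array lay above every 129X1/SvJ array.

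Cd59a was 2.53-fold higher in B6.CAST in controls, a log2 difference of 1.34 ± 0.22 (interval 0.85 to 1.83, limma adjusted p = 0.0175), and 2.42-fold higher after noise, 1.28 ± 0.22 (interval 0.79 to 1.77, limma adjusted p = 0.0168). After noise its estimates were -0.21 ± 0.20 in 129X1/SvJ and -0.27 ± 0.25 in B6.CAST. Neither passed. The call in controls was lost in 7 of 19 alternative settings and the call after noise in 6 of 19, with differences from 1.15 to 1.53 and from 1.06 to 1.50 on the log2 scale throughout. Among the arrays left out in turn, both B6.CAST controls and 129X1/SvJ controls 2 and 3 ended the call in controls (limma adjusted p = 0.2460 at the highest), and both B6.CAST noise arrays ended that after noise (0.2154 at the highest).

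The strain difference was not alike over all probe sets of the membrane regulators. Cd59b was higher in B6.CAST by 0.88 ± 0.24 in controls and 0.75 ± 0.24 after noise on the log2 scale, with no overlap between strains, but its limma adjusted p-values of 0.17 and 0.236 did not pass. Cr1l, the mouse gene of the regulator Crry, lay higher in B6.CAST on 101879_s_at by 0.46 ± 0.25 and 0.73 ± 0.25. On 161648_at it differed by 0.04 ± 0.18 and -0.01 ± 0.18, and its 2 probe sets correlated with r = -0.01 over the arrays.

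**Figure D4:**
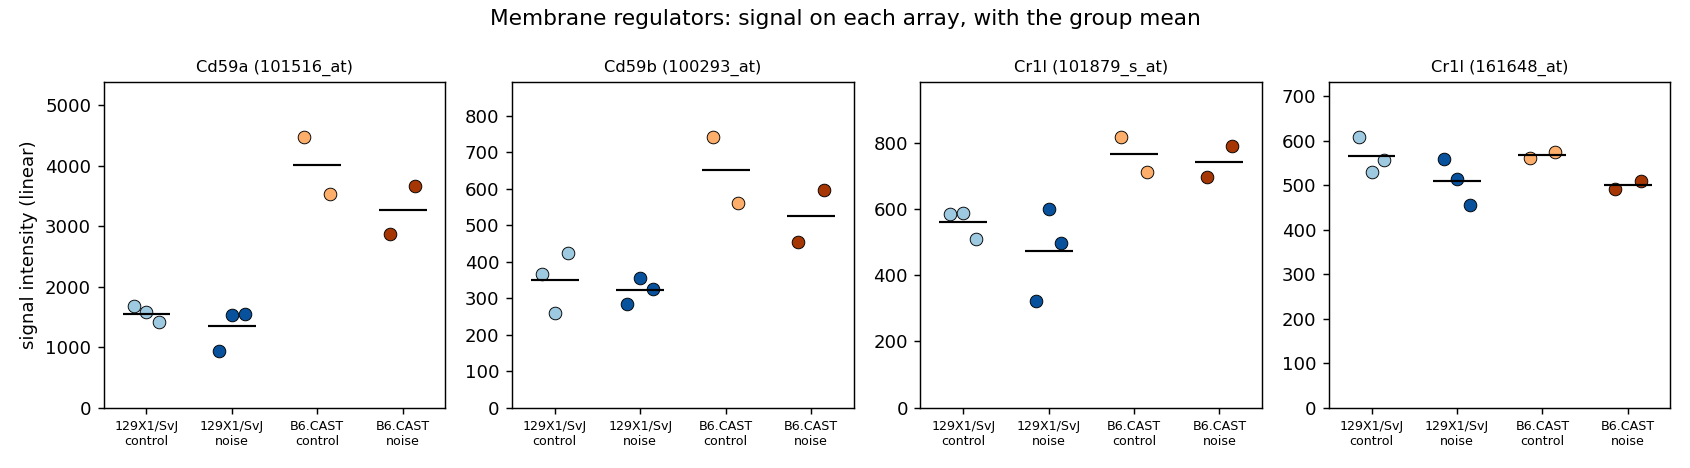
Signal intensity (linear scale) of the 4 tested probe sets of membrane regulators on each of the 10 arrays; points are arrays and bars are group means. Cd59a lay between 946.0 and 1676.8 in 129X1/SvJ and between 2871.5 and 4483.7 in B6.CAST, and the 2 Cr1l probe sets differ in whether the strains stand apart.

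The fluid-phase regulators clusterin and vitronectin, which bind the forming pore, did not pass in any comparison. Clu gave 12958.4, 13214.0 and 12908.6 in 129X1/SvJ controls and 12673.3, 13939.7 and 12702.3 after noise on its brighter probe set, 95286_at. Its log2 change was -0.05 ± 0.11 in 129X1/SvJ (interval -0.29 to 0.18) and 0.12 ± 0.13 in B6.CAST (interval -0.17 to 0.41), so larger changes than these bounds are outside the interval. The second probe set, 161294_f_at, gave -0.04 ± 0.11 and 0.17 ± 0.13.

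Vtn signals were 368.6, 985.5 and 330.9 in 129X1/SvJ controls and 220.4, 208.9 and 292.5 after noise, and every noise array lay below the controls. The log2 change was -1.08 ± 0.34 (limma adjusted p = 0.29). Without the second control array it was -0.61, and on that array Ttr, the transthyretin gene, also stood at 6252.2, against 177.9 to 371.8 on the other arrays. What Ttr marks on that array was not tested. In B6.CAST, Vtn gave 314.8 to 368.5 in controls and 202.9 to 269.0 after noise, a log2 change of -0.49. These groups did not overlap either, as for 29.6% of all tested probe sets in that comparison. The mean of both noise effects on Vtn was -0.79 on the log2 scale and did not pass. It ranged from -0.93 to -0.5 over 18 alternative settings.

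Among the receptors, Cd93, a surface protein of endothelial and myeloid cells first described as a C1q receptor, gave 282.6, 369.9 and 297.6 in 129X1/SvJ controls and 628.1, 458.8 and 486.5 after noise. The groups did not overlap, and the log2 change was 0.68 ± 0.20 (limma adjusted p = 0.255), beside 0.19 ± 0.25 in B6.CAST. C5ar1, the receptor of the C5a fragment, changed by 0.50 ± 0.31 and 0.20 ± 0.38, and Itgb2, the shared chain of complement receptors 3 and 4, by 0.65 ± 0.38 and -0.26 ± 0.46. C3ar1 and Itgax changed by -0.21 ± 0.27 and -0.26 ± 0.25 in 129X1/SvJ, and none of the 5 tested receptor genes passed.

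**Figure D5:**
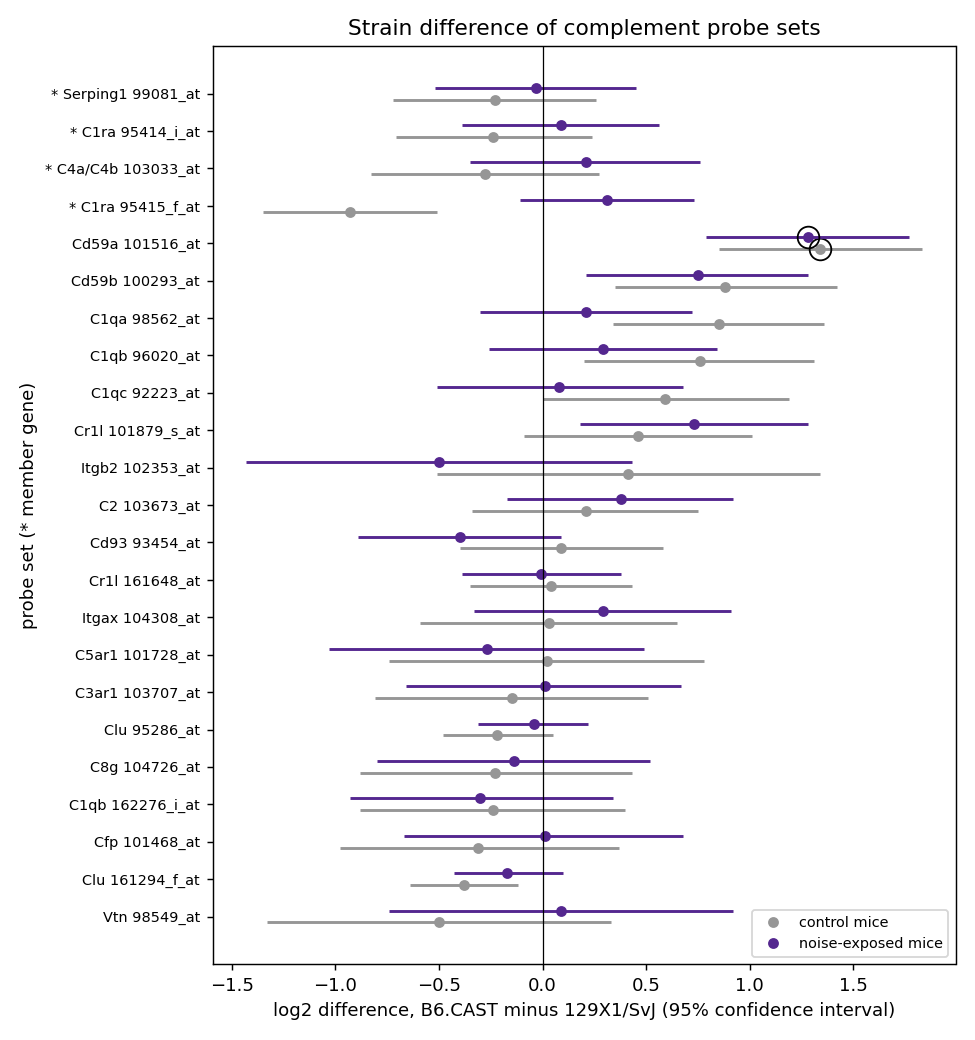
Log2 difference between strains (B6.CAST minus 129X1/SvJ) of the 23 tested complement probe sets in control mice (grey) and noise-exposed mice (purple), with 95% confidence intervals; asterisks mark member genes and rings mark calls at the adjusted threshold. Only Cd59a carries rings, at 1.34 and 1.28, and C1ra 95415_f_at lies at -0.93 in controls and 0.31 after noise.

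On the same arrays, genes of the acute inflammatory response did move after noise. Of a list of 15 genes driven by interleukin 6 or NF-kappaB, 10 were tested. Of these, 8 were called higher in the mean of both strains, where 0.46% of all tested probe sets were called. Beside them, 0 of the 16 other complement genes and 0 of the 4 member probe sets passed. In the single strains, 4 of the 10 were called in 129X1/SvJ (0.506% of all tested probe sets) and 1 in B6.CAST (0.046%). The list was chosen with earlier results of these data known, so its rise is no independent measure to set beside complement. The chemokine gene Ccl2 rose by 4.08 ± 0.41 on the log2 scale in 129X1/SvJ (limma adjusted p = 8.4e-04) and by 3.66 ± 0.51 in B6.CAST (0.037). Socs3, the feedback inhibitor of that signalling, rose by 2.07 ± 0.32 in 129X1/SvJ (limma adjusted p = 0.0129), and its estimate in B6.CAST was 1.35 ± 0.39 (adjusted p = 1). Of 11 tested interferon gamma response genes, 0 passed after noise in either strain. In the mean noise effect 10 of the 11 had higher estimates, and 3 had an unadjusted limma p under 0.05, beside 663 of all 8695 probe sets. At that level there were 4 of the 11 in 129X1/SvJ and 0 in B6.CAST, beside 1003 and 183 of all probe sets.

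By a rule of highest Pearson correlation over the 10 arrays among 6486 genes, the genes most like C1ra 95415_f_at were Taf8 (r = 0.90), Stk25 (0.89) and Frat1 (0.89). Those most like Serping1 were Asap1 (0.95), Gpld1 (0.94) and Pnpla2 (0.92). For 103033_at they were Abcc3 (0.90), Dync1h1 (0.88) and Ino80e (0.87). For Cfb on 100609_at they were Rrn3 (0.85), Ankrd17 (0.79) and Ube2l6 (0.78), which rests on dim signals. No other complement gene was admitted to this ranking. The highest of so many correlations over 10 arrays can be large without any link between the genes, and shared regulation was not tested.

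The labelled tissue was borne out by its markers, of which 9 of 12 were on the array and all 9 were tested. Coch, which encodes the inner ear protein cochlin, gave between 12604.0 and 20801.2. Neutrophil markers were all measured, 11 of 11, and none was at 0. Their summed signal was 3476 to 21114 in 129X1/SvJ controls, 12373 to 36720 after noise, 5942 to 19771 in B6.CAST controls and 2362 to 2650 after noise. None of the 11 passed the test in any comparison. The estimates of all 11 were higher after noise in 129X1/SvJ (median log2 change 0.82, 1 of 11 at an unadjusted limma p under 0.05) and lower in B6.CAST (median -1.76, 7 of 11). These directions are the reverse of those of C1ra 95415_f_at. Between the strains after noise, all 11 had lower estimates in B6.CAST (median log2 difference -2.60). Of them, 10 had an unadjusted limma p under 0.05, beside 920 of all 8695 probe sets. In controls 10 of the 11 had higher estimates in B6.CAST (median 0.25). Erythroid markers, 5 of 8 on the array and none at 0, summed to 12963 to 32330 and 22091 to 35895 in 129X1/SvJ and to 9898 to 24583 and 7103 to 10311 in B6.CAST, in the order control and noise. All 5 had lower estimates after noise in B6.CAST (median log2 change -0.83) and higher ones in 129X1/SvJ (0.40), none of which passed. Of the 5, 1, Hbb-b2, was called lower in B6.CAST than in 129X1/SvJ after noise, where 1.45% of all tested probe sets were called. Its log2 difference was -2.51 ± 0.53 there and already -1.11 ± 0.53 in controls, which did not pass. Sequence differences under its probes were not tested. The part of either marker list in the C1ra values was not tested. Macrophage markers, 12 of 13 on the array and none at 0, summed to 2646 to 4799 and 3991 to 4989 in 129X1/SvJ and to 5104 to 6987 and 4954 to 5615 in B6.CAST, in the order control and noise. Of the 10 tested macrophage genes, 9 had higher estimates in B6.CAST than in 129X1/SvJ controls (median log2 difference 0.38). Ctss was called there, at 1.01 ± 0.20 (limma adjusted p = 0.0469), where 0.92% of all tested probe sets were called. After noise 8 of the 10 had higher estimates in B6.CAST and 0 were called. The part of the macrophage markers in the C1q values was not tested. Fibroblast markers, all 8 of 8 measured, summed to 19032 to 22569 and 17668 to 20304 in 129X1/SvJ and to 15345 to 16680 and 14310 to 14988 in B6.CAST. These sums were lower in every B6.CAST array, but 0 of the 8 genes passed between the strains in controls, and 3 of them had higher estimates in B6.CAST. In such bulk samples, fewer cells of a type and less RNA per cell cannot be told apart.

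Array quality differed. The mean correlation with the other arrays was 0.910 for the first 129X1/SvJ noise array and 0.943 to 0.955 for the others. Gapdh signal at its 3' probe set over that at its 5' probe set, which grows as RNA degrades, was 29.2 on the second 129X1/SvJ control, 6.94 on the first B6.CAST noise array and 0.79 to 1.40 on the others. Removal of both arrays of high ratio leaves a single B6.CAST noise array, so values of that group then rest on a single pool. Without both arrays the difference of noise effects of C1ra 95415_f_at was 1.22 on the log2 scale. The Cd59a differences were then 1.34 in controls and 1.50 after noise, with limma adjusted p-values of 0.0807 and 0.1152.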

How the data were processed

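Cochlear RNA from pools of mice was measured on 10 arrays, and the arrays of a group are separate pools per the labels. Each deposited value is the signal intensity of a probe set on a linear scale. The authors' table had been scaled per array, since the mean without the lowest and highest 2% of values was 500.3 on every array. The authors' software and its version are not stated in the labels, and detection flags were not used here. No 2 arrays held identical values among 45 pairs. In the titles of replicate 3 of both 129X1/SvJ groups the strain is written with another letter, and these arrays were treated as 129X1/SvJ.

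From the intensities, log2(intensity + 16) was computed and quantile normalized. Testing covered 8695 probe sets, after removal of 66 control probe sets and of the dimmest 30% of the rest by mean. A model of 4 group means over all 10 arrays was fitted with limma 3.58.1 in R 4.3.3, with a trend of the variance on the mean. Benjamini-Hochberg adjustment ran over every tested probe set, with a threshold of 0.05. Of the 6 comparisons, 2 set noise against control within a strain, 2 are the mean and the difference of these effects, and 2 set B6.CAST against 129X1/SvJ without and with noise. Errors of log2 changes are standard errors. P-values measure the spread between pools, and the number of arrays limits the precision. The steps were tested on simulated data.

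Probe sets were named by the platform annotation, in which 10855 have 1 gene, 396 several and 1237 none. A probe set with several genes is described by its ID. Named besides the members were called complement genes and, in each role, up to 3 genes with the smallest p of the mean noise effect or of the strain difference in controls. Masp2 was named outside this rule, after its dim signals were seen. A gene's brightest probe set stood for it in lists. The members, gene lists and marker lists were chosen with earlier results of these data known. The pairing of replicate numbers was checked by the correlation of deviations from group means, which was -0.150, -0.183 and -0.389 in 129X1/SvJ and -0.169 in B6.CAST, so the numbers were not used as pairs. Alternatives changed the scaling, the pseudocount, the filter, the trend, the weights of arrays, which arrays entered, and the use of a replicate block.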

Additional observations from a re-analysis of the deposited data

Results flagged for a closer look

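The noise effect on C1ra 95415_f_at ran in opposite directions in the strains: every noise array of 129X1/SvJ lay below every control of that strain, and both B6.CAST noise arrays lay above both controls. The difference of 1.24 ± 0.27 on the log2 scale was tested within the fit and had a limma adjusted p of 0.997. The other probe set of C1ra gave a difference of 0.32 ± 0.30, and the dim probe set shared with C1rb gave 1.19 ± 0.48 in a fit that kept dim probe sets. Of the 23 tested complement probe sets it was the only one with such opposite shifts. Over all tested probe sets, groups did not overlap for 16% after noise in 129X1/SvJ and for 29.6% in B6.CAST. The share of all probe sets with opposite shifts was not counted, so this does not single out C1ra.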

How the results depend on the processing

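Of 697 recomputed changes of complement probe sets, 664 kept their direction and their side of the threshold, 13 lost a call, 5 gained one and 15 changed sign. Of estimates that changed sign, the largest in the reported fit was -0.28. For 103033_at the noise change in 129X1/SvJ was 0.19 without both arrays of high Gapdh ratio and -0.14 to 0.19 with 1 array left out, and its strain difference in controls was -0.62 to 0.06. For Serping1 without both arrays of high Gapdh ratio, the noise change in B6.CAST was -0.07 and the difference of noise effects -0.03. With 1 array left out its noise change in B6.CAST was -0.09 to 0.16 and its strain difference after noise -0.14 to 0.16, which was 0.10 under array weights. For C1ra 95414_i_at the strain difference after noise was -0.02 without quantile normalization, -0.01 under array weights and -0.04 to 0.16 with 1 array left out, and its noise change in B6.CAST was -0.04 to 0. The member probe sets called in the control strain difference went from 0 to 1 (95415_f_at) without quantile normalization, with a pseudocount of 64, without a variance trend, under array weights and, with 1 array left out, 0 to 1. Cd59a lost its calls without a variance trend (limma adjusted p 0.0520 and 0.0539). The count of all probe sets called for noise in 129X1/SvJ, 44, became 71 under array weights, 22 without both arrays of high Gapdh ratio and 22 to 48 with 1 array left out. For noise in B6.CAST, 4 became 2 with a pseudocount of 1 or 64, 1 without the filter, 0 without a variance trend, 7 under array weights, 0 with only the groups compared, 0 without both arrays of high Gapdh ratio and 0 to 5 with 1 array left out. The mean noise effect, 40, became 10 and 18 to 47 under the last 2 settings. The strain difference in controls, 80, became 139 under array weights, 151 with only the groups compared, 36 without both arrays of high Gapdh ratio and 23 to 129 with 1 left out. The strain difference after noise, 126, became 192, 55, 29 and 26 to 125 in that order. With the replicate number as a block the counts were 31 and 2 for noise in 129X1/SvJ and B6.CAST, 28 for the mean, 0 for the difference, and 34 and 44 for the strain differences without and with noise. No member was called under the block, and Cd59a lost both calls (1.36 and 1.30, adjusted p 0.0782 and 0.0726). The numbers are not shown to pair the arrays. Crossed pairing in B6.CAST, chosen after seeing the data, gave 2 calls. The causes were not tested. Dim signals limit Cfb, 161571_f_at and 162390_r_at.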
